A study of Homo sapiens with 6 samples.

Results

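The 10 genes described here encode structural microtubule-associated proteins: MAP2, MAPT and MAP4 of the tau family, MAP1A, MAP1B and MAP1S of the MAP1 family, MAP7 and MAP7D1, MAP9, and the tubulin-binding protein stathmin, STMN1. They were taken by symbol from a table of 63677 genes and read in every library of HEK293, a human embryonic kidney line that is widely used for transfection. The libraries were siRAB3IP (siRNA aimed at the circular RNA of RAB3IP), siCAMSAP1 (siRNA aimed at the circular RNA of CAMSAP1) and control (non-targeting siRNA, called NTC in the labels), with 2 libraries in each of the 3 groups. All groups were transfected with Lipofectamine RNAiMAX and collected 48 hours later, and poly(A) RNA was sequenced. The genes were chosen by their measured CPM and fold changes in these same libraries, with MAP2 singled out first, so the fold changes of the 10 genes are given as a description and no p-value is given for them.

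Microtubules are polymers of alpha and beta tubulin that grow and shrink at their ends. Structural microtubule-associated proteins bind along the lattice, where they stabilise and space the filaments and set which motors can walk on them, while stathmin binds free tubulin and favours disassembly. Several are known best from neurons, with MAP2 in dendrites and tau in axons, whereas MAP4 is found in most dividing cells. The study set each knockdown against the control, and a direct comparison of the knockdowns is possible from the same libraries. CAMSAP1, the host gene of one of the circular RNAs, is itself a microtubule gene, whose product binds minus ends.

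The libraries held 37379217 to 39637733 fragments assigned to genes, and levels are given as CPM, counts scaled to library size with TMM factors. The groups follow the names in the authors' deposited tables, because each of their 8 normalized columns is a multiple of the count column of the same group. The titles of the sample records put 4 of the 6 libraries in another group, and the genotype field of the same records swaps the names of the knockdowns relative to the titles. With the grouping by titles, 0 of 22331 genes passed edgeR's adjusted threshold in any comparison, while 350, 441 and 471 genes had an unadjusted p under 0.05. Under the names of the deposited tables, 2597 passed in siRAB3IP against control, 210 in siCAMSAP1 against control and 1977 in siRAB3IP against siCAMSAP1. Their unadjusted counts were 5765, 2703 and 5182. These counts bear on which libraries belong together, and not on which name each group carries. No source states which set of names is right, so every direction below is that of the libraries so named. The linear host transcripts were at 67.4 ± 0.987 CPM in siRAB3IP, 58.9 ± 3.71 CPM in siCAMSAP1 and 59.98 ± 3.56 CPM in control for RAB3IP, and at 153 ± 4.10, 139 ± 0.817 and 137 ± 1.53 CPM for CAMSAP1 (SD, n = 2 each), and gene counts of poly(A) RNA do not check the knockdown of the circular forms. Of 6 genes listed as HEK293 markers, VIM, KRT8, KRT18 and CDH2 stood between 70.96 and 927 CPM, whereas PAX2 and NEFM had at most 9 and 13 fragments in any library. The summed CPM of these 6 ran from 1082 to 1355 in siRAB3IP, 1352 to 1356 in siCAMSAP1 and 1579 to 1669 in control, and its part in the results was not tested. The 9 markers of blood, liver, fibroblast, astrocyte and neuron cells summed to 7.99 to 10.5, 6.06 to 11.3 and 8.19 to 11.98 CPM, with HBB at 0 fragments in all libraries and LUM and GFAP making up most of the sum. The labels do not state whether replicate libraries are separate cultures, so the tests measure library spread, possibly technical alone.

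The promoters of MAP2, MAP1A and MAP1B, which each passed the threshold described below in some comparison, and of the abundant MAP4 as a contrast, are shown because MAP2, MAPT and MAP4 share a family and differ widely in level. RefSeq promoter windows (build GRCh38.p14, 250 bases before to 50 after an annotated start) were matched for 9 of the 10 genes, with 19 windows in all and no entry used for MAPT. The sequences are MAP2 at chr2:209661246-209661545 (a) and chr2:209579082-209579381 (b), MAP1A at chr15:43510704-43511003, MAP1B at chr5:72107225-72107524, all on the plus strand, and MAP4 at chr3:48088799-48089098 on the minus strand. Capitals mark matches, on either strand, to GGGCGG (the SP1 box), TATAAA (the TATA box), CCAAT (the CCAAT box), CAGCACC (part of the RE1 site) and TGACGTCA (the cyclic AMP response element).
MAP2 promoter a: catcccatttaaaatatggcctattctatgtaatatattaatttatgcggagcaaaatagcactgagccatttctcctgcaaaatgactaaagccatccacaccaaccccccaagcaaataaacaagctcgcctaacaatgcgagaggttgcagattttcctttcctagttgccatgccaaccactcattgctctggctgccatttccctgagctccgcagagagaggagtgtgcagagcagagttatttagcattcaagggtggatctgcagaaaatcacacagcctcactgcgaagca
MAP2 promoter b: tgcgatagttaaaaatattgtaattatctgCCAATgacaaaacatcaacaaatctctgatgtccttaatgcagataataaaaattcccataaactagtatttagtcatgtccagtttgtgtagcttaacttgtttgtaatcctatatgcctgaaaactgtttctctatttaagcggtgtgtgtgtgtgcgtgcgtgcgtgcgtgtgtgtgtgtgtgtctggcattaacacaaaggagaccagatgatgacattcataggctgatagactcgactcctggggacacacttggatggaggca
MAP1A promoter: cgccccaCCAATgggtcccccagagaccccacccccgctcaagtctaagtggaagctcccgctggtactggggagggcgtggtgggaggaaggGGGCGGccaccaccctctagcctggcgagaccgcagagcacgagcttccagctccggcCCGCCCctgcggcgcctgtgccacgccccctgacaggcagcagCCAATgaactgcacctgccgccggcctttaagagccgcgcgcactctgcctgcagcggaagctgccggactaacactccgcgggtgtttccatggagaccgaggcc
MAP1B promoter: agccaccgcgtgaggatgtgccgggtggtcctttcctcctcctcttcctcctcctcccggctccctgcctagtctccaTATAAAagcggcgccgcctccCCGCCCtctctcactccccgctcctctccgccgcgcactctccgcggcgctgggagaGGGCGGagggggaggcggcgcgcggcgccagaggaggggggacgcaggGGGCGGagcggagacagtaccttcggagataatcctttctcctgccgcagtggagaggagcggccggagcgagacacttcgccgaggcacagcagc
MAP4 promoter: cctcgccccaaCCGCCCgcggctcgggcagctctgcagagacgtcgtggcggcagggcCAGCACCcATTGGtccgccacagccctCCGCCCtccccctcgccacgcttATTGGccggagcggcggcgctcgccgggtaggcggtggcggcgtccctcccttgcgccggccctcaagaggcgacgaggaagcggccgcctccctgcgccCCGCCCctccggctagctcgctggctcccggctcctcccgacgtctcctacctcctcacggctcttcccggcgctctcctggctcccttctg

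The MAP2 windows held few of these letters, as did some windows of MAP4 and MAP7. Of 3 MAP2 windows, 1 held a CCAAT match and 0 held the SP1 box, and their GC content was at most 52.3%, below the median of 58.7% over 35116 windows. The SP1 box was found in 11 of the 19 windows, against 45.0% of all windows, and CCAAT in 6 of 19, against 34.6%. TATAAA was in 2 of 19, both of MAP1B, against 11.5% of all windows. CAGCACC was in 2 of 19, against 7.75%, and TGACGTCA in 0 of 19, against 1.85%. The MAP1A window shown held 2 SP1 boxes and 2 CCAAT matches at 69.3% GC, and the MAP1B window held 3 SP1 boxes at 70.0% GC. The MAP4 window shown held 3 SP1 boxes, 2 CCAAT matches and 1 CAGCACC at 75.0% GC. Another MAP4 window, not shown, held none of the matches at 35.3% GC. MAP7 windows at 36.0%, 46.0% and 55.3% GC held no SP1 box. Windows of 1 gene can overlap, gene counts do not tell which start these cells used, and a match is a description of letters.

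STMN1 was the most abundant of the 10 genes in every group, and MAP2 the least. Levels between genes are compared per kilobase of exon (CPM divided by the exon length in the count table). In control the order was STMN1 at 54.2, MAP7 at 12.7, MAP7D1 at 12.7, MAP4 at 10.3, MAP1B at 8.46, MAP9 at 5.56, MAP1S at 5.09, MAP1A at 1.34, MAPT at 0.532 and MAP2 at 0.491 CPM per kb. The libraries of neighbours in this order overlapped for MAP7 and MAP7D1, for MAP9 and MAP1S, and for MAPT and MAP2. The order was the same in siRAB3IP and in siCAMSAP1, with other overlaps: MAP7D1 with MAP4 in both, and MAP4 with MAP1B in siRAB3IP. The median over the 22331 genes tested was 2.20, 2.22 and 2.28 CPM per kb in siRAB3IP, siCAMSAP1 and control, so MAP1A, MAPT and MAP2 lay below the middle gene and the other 7 above it. MAP2 stood at percentile 9.75 in siRAB3IP, 10.9 in siCAMSAP1 and 22.1 in control.

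**Figure D1:**
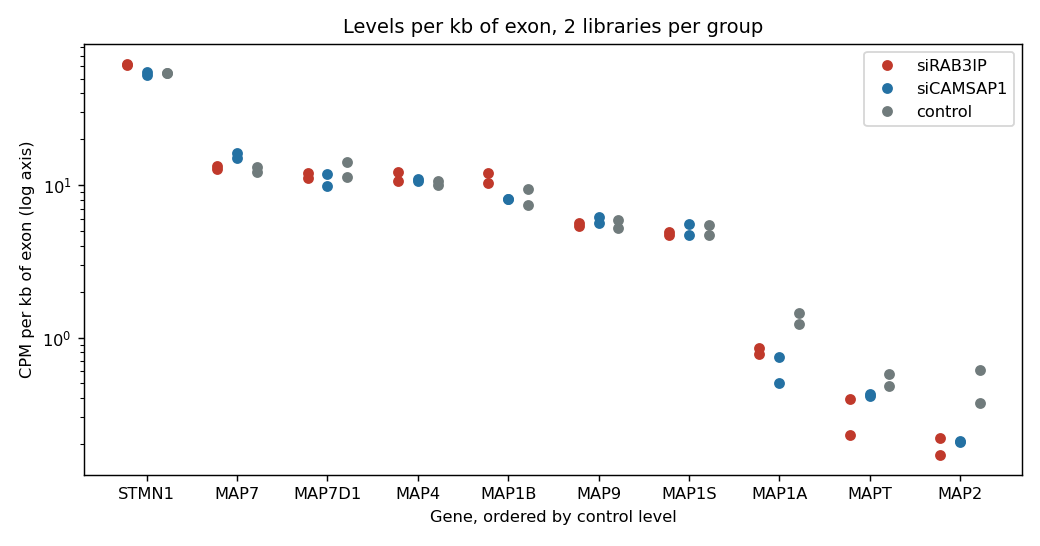
Level of each gene in CPM per kb of exon (log axis), 1 point per library, with genes ordered by their control mean. STMN1 lies far above the rest, a middle group runs from MAP7 to MAP1S, and MAP1A, MAPT and MAP2 lie lowest. The control points of MAP1A, MAPT and MAP2 lie above those of both knockdowns.

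In siRAB3IP against control, 4 of the 10 genes passed the threshold of an adjusted p under 0.05 by edgeR's quasi-likelihood test, 1 higher (MAP1B) and 3 lower (MAP2, MAP1A and MAPT), while 11.6% of all 22331 genes passed, 6.39% higher and 5.24% lower. In siCAMSAP1 against control, 2 passed, MAP2 and MAP1A, both lower, while 0.94% of all genes passed, 0.448% higher and 0.493% lower. In siRAB3IP against siCAMSAP1, 1 passed, MAP1B, higher in siRAB3IP, while 8.85% of all genes passed, 4.89% higher and 3.96% lower. The genes were chosen with such values known, so nothing is read from these counts. The comparisons against control share the control libraries. The 2 libraries of a pair of groups did not overlap for 6 of 10 genes in siRAB3IP against control (3 above, 3 below), for 5 in siCAMSAP1 against control (2 above, 3 below) and for 5 in siRAB3IP against siCAMSAP1 (3 above, 2 below), while 53.7%, 41.5% and 52.2% of all genes did not overlap in these comparisons. The median log2 fold change of the 10 genes was -0.04, -0.03 and 0.00, beside -0.01, 0.00 and -0.01 over all genes.

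**Figure D2:**
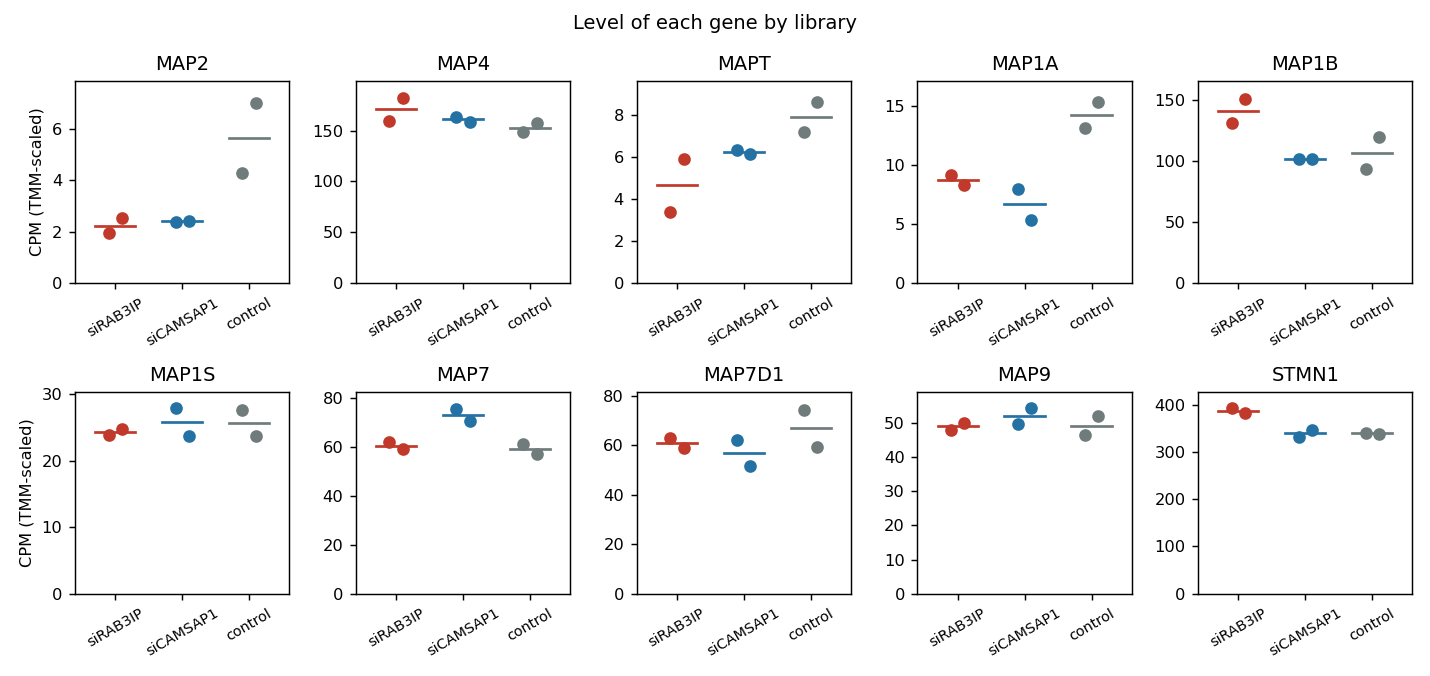
CPM (TMM-scaled, from 0) of the 10 genes in each library, with points for the 2 libraries per group and a line at their mean. MAP2, MAP1A and MAPT were lower in all 4 knockdown libraries than in both control libraries, MAP1B was highest in siRAB3IP, and MAP7 was highest in siCAMSAP1.

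MAP2, the microtubule-binding and protein kinase A-anchoring protein of dendrites, was lower in both knockdowns than in control. It is on chromosome 2, 210288782 to 210598842 on the plus strand (hg19), and its exons overlapped no other gene in the count table. It had 74 and 95 fragments in the siRAB3IP libraries, 93 and 96 in the siCAMSAP1 libraries, and 161 and 291 in the control libraries. As CPM these were 1.957 and 2.53 in siRAB3IP, 2.40 and 2.44 in siCAMSAP1, and 4.31 and 7.04 in control. All 4 knockdown libraries were below both control libraries, and the knockdowns overlapped each other. The log2 fold change was -1.34 ± 0.24 (SE) in siRAB3IP and -1.23 ± 0.24 in siCAMSAP1, and -0.11 ± 0.26 for siRAB3IP against siCAMSAP1.

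The control libraries of MAP2 lay 1.63-fold apart, above the 95th percentile of 1.52 over 3548 genes with 2 to 10 CPM in control. Their coefficient of variation was 34.1%, against 6.65% from counting alone. Without control replicate 2 the log2 fold change was -0.94 in siRAB3IP, still past the threshold, and -0.83 in siCAMSAP1, no longer past it. In siCAMSAP1 the threshold was also missed without siCAMSAP1 replicate 1 (-1.23) and without siCAMSAP1 replicate 2 (-1.24). The authors' deposited tables gave MAP2 log2 fold changes of -1.30 (SE 0.31) in siRAB3IP and -1.17 (SE 0.31) in siCAMSAP1.

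Tau, MAPT, which binds and stabilises axonal microtubules, was low in these cells (chromosome 17, 43971748 to 44105700, plus strand, hg19). It had 3.41 and 5.91 CPM in siRAB3IP, 6.34 and 6.17 CPM in siCAMSAP1, and 7.22 and 8.66 CPM in control. Both knockdowns lay below control in every library, and siRAB3IP below siCAMSAP1. The log2 fold change was -0.77 ± 0.21 in siRAB3IP, past the threshold, -0.35 ± 0.21 in siCAMSAP1, not past it, and -0.42 ± 0.21 for siRAB3IP against siCAMSAP1, not past it. The siRAB3IP libraries lay 1.73-fold apart, above the 95th percentile of 1.52 over 3516 genes of 2 to 10 CPM in that group. The siRAB3IP call ended without siRAB3IP replicate 1 (-0.43) and without control replicate 2 (-0.63), and siRAB3IP against siCAMSAP1 passed without siRAB3IP replicate 2 (-0.87). The authors' deposited siRAB3IP table gave -0.80 (SE 0.25). MAPT shares 0.503% of its exon bases with MAPT-AS1, and counting used no strand.

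MAP4, the tau-family protein of dividing cells (chromosome 3, 47892182 to 48130769, minus strand, hg19), had 159 and 182 CPM in siRAB3IP, 164 and 158 CPM in siCAMSAP1, and 148 and 158 CPM in control. Its log2 fold changes were 0.16 ± 0.08 in siRAB3IP, 0.07 ± 0.08 in siCAMSAP1 and 0.09 ± 0.08 between them, none past the threshold, and the siRAB3IP and the siCAMSAP1 libraries lay just above those of control. MAP4 made up most of the tau family per kb of exon in all libraries, 95.2% to 96.4% in siRAB3IP, 94.4% to 94.6% in siCAMSAP1 and 89.9% to 92.1% in control. The MAP2 share was 1.53% and 1.70% in siRAB3IP, 1.78% and 1.88% in siCAMSAP1, and 3.45% and 5.18% in control. The MAPT share was 2.06% and 3.08%, 3.66% and 3.68%, and 4.48% and 4.93% in the same groups. For both genes every knockdown library lay below both control libraries in these shares, which do not depend on library scaling. The shares are formed from the same values by which the genes were chosen, so nothing further is read from them.

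**Figure D3:**
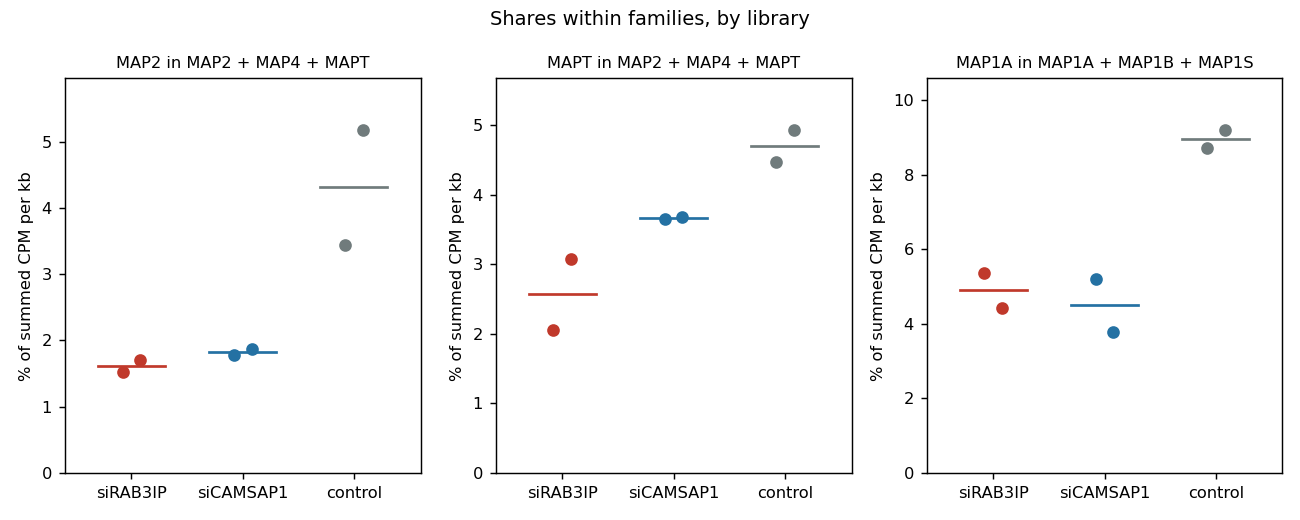
Share of MAP2 and of MAPT in the summed CPM per kb of MAP2, MAP4 and MAPT, and of MAP1A in that of MAP1A, MAP1B and MAP1S, in percent, with 1 point per library and a line at the group mean. Each share was lower in the 4 knockdown libraries than in the 2 control libraries, for MAP1A at 3.796% to 5.36% against 8.72% and 9.21%. The shares are formed from the values by which the genes were chosen.

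MAP1A and MAP1B, each made as a polyprotein that is cut into a heavy and a light chain, differed from control in different ways. MAP1A, the form of mature neurons (chromosome 15, 43803156 to 43823818, plus strand, hg19), had 9.12 and 8.33 CPM in siRAB3IP, 7.96 and 5.36 CPM in siCAMSAP1, and 13.1 and 15.3 CPM in control. All knockdown libraries were below both control libraries, and siCAMSAP1 was below siRAB3IP. The siCAMSAP1 libraries lay 1.49-fold apart, with a coefficient of variation of 27.7% against 6.20% from counting alone, and the 95th percentile over 3491 genes of 2 to 10 CPM in that group was 1.48. The log2 fold change was -0.71 ± 0.17 in siRAB3IP and -1.10 ± 0.17 in siCAMSAP1, both past the threshold, and 0.39 ± 0.17 for siRAB3IP against siCAMSAP1, not past it. In siRAB3IP the call was lost on leaving out siRAB3IP replicate 1 (-0.77), replicate 2 of siRAB3IP (-0.64) or control replicate 2 (-0.59), and in siCAMSAP1 without siCAMSAP1 replicate 2 (-0.84) or control replicate 2 (-0.98). Between the knockdowns it passed without siCAMSAP1 replicate 1 (0.71). The authors' deposited siRAB3IP table gave -0.70 (SE 0.19), and MAP1A was not among the 474 genes of their siCAMSAP1 table, which holds genes past their threshold.

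MAP1B, the form of growing axons (chromosome 5, 71403061 to 71505395, plus strand, hg19), had 131 and 151 CPM in siRAB3IP, 102 and 102 CPM in siCAMSAP1, and 93.7 and 119.8 CPM in control. The siRAB3IP libraries were above all the others, and siCAMSAP1 lay within the range of control. The log2 fold change was 0.40 ± 0.11 in siRAB3IP, past the threshold, -0.07 ± 0.11 in siCAMSAP1, not past it, and 0.47 ± 0.11 for siRAB3IP against siCAMSAP1, past it. The call against control ended without siRAB3IP replicate 2 (0.30) and without control replicate 1 (0.24). The call against siCAMSAP1 ended without siRAB3IP replicate 2 (0.37), siCAMSAP1 replicate 1 (0.48) or siCAMSAP1 replicate 2 (0.47). The authors' deposited siRAB3IP table gave 0.42 (SE 0.10).

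MAP1S, the short and widely expressed form, which also binds mitochondria and LC3, lies on chromosome 19, 17830051 to 17845325, plus strand (hg19). It had 23.9 and 24.8 CPM in siRAB3IP, 27.9 and 23.7 CPM in siCAMSAP1, and 27.6 and 23.7 CPM in control, and the groups overlapped. Within the family and per kb of exon, the ratio of MAP1B to MAP1A was 12.1 and 15.2 in siRAB3IP, 10.8 and 16.0 in siCAMSAP1, and 6.02 and 6.59 in control. Both knockdowns had the higher ratio in every library, which restates the levels by which the genes were chosen. In siRAB3IP the higher ratio went with a lower MAP1A and a higher MAP1B, and in siCAMSAP1 with a lower MAP1A.

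**Figure D4:**
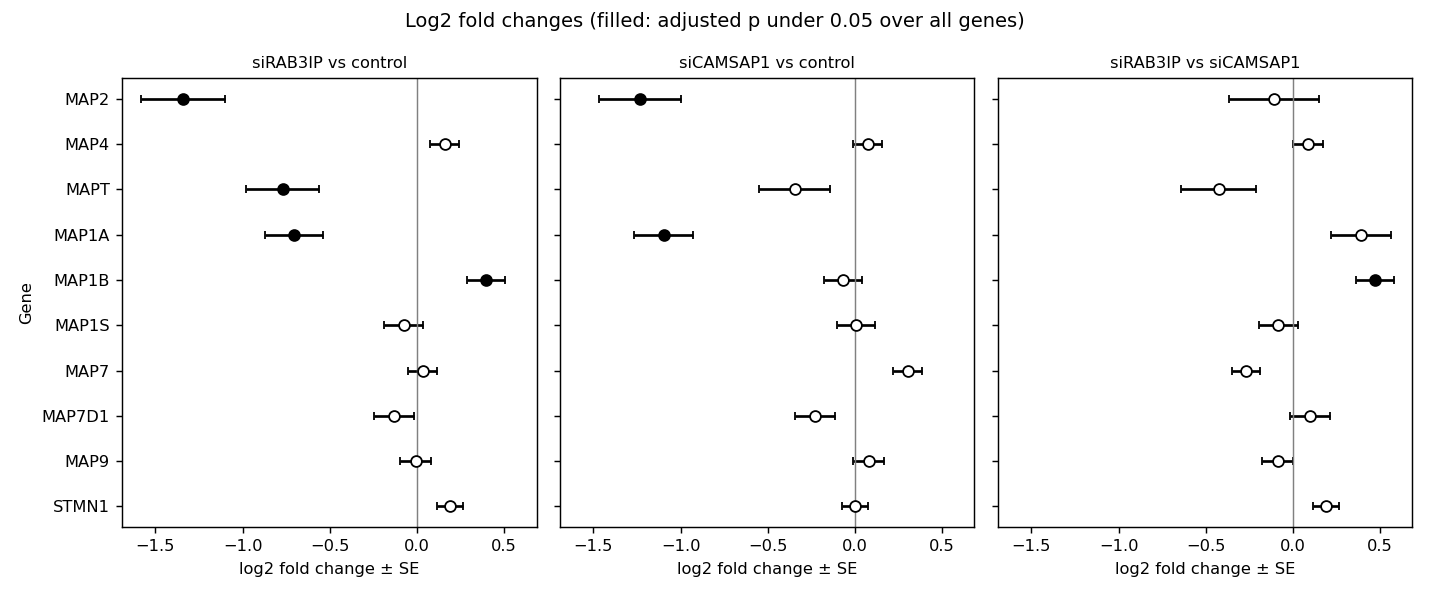
Log2 fold change of the 10 genes with its standard error in the 3 comparisons, where filled points passed an adjusted p under 0.05 over all 22331 genes. MAP2, MAP1A and MAPT lie at the left in both comparisons against control, with MAPT filled in siRAB3IP alone. MAP1B lies at the right in both comparisons of siRAB3IP.

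MAP7 and MAP7D1, which recruit and activate kinesin-1 on microtubules, lie on chromosome 6, 136663875 to 136871957, minus strand, and chromosome 1, 36621180 to 36646450, plus strand (hg19). MAP7 had 61.9 and 59.2 CPM in siRAB3IP, 75.5 and 70.5 CPM in siCAMSAP1, and 61.3 and 57.1 CPM in control. The siCAMSAP1 libraries were above all others, with log2 fold changes of 0.30 ± 0.08 in siCAMSAP1 and 0.03 ± 0.08 in siRAB3IP, and -0.27 ± 0.08 for siRAB3IP against siCAMSAP1, none past the threshold. Among genes with a mean of 5 CPM or more alone, it passed between the knockdowns. MAP7 was listed past the authors' threshold in their deposited siCAMSAP1 table, at 0.30 (SE 0.09). MAP7D1 had 63.0 and 59.1 CPM in siRAB3IP, 62.3 and 51.7 CPM in siCAMSAP1, and 74.6 and 59.2 CPM in control, with overlap between all groups and log2 fold changes of -0.13 ± 0.12 and -0.23 ± 0.12 against control. The MAP7 share of the pair, per kb of exon, was 52.6% and 53.1% in siRAB3IP, 57.8% and 60.6% in siCAMSAP1, and 48.1% and 52.2% in control. MAP7 shares 3.41% of its exon bases with MAP7-AS1, which could not be told apart without strand.

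MAP9, a spindle-associated protein (chromosome 4, 156263810 to 156298122, minus strand, hg19), had 48.0 and 49.95 CPM in siRAB3IP, 49.8 and 54.3 CPM in siCAMSAP1, and 46.3 and 52.1 CPM in control. All groups overlapped, with log2 fold changes of -0.01 ± 0.09 in siRAB3IP and 0.08 ± 0.09 in siCAMSAP1, and 7.63% of its exon bases are shared with MAP9-AS1. STMN1, which binds tubulin dimers until it is phosphorylated in mitosis (chromosome 1, 26210672 to 26233482, minus strand, hg19), had 393 and 382 CPM in siRAB3IP, 333 and 346 CPM in siCAMSAP1, and 340.0 and 338 CPM in control. The siRAB3IP libraries were above all others. The log2 fold changes were 0.19 ± 0.08 in siRAB3IP against control, 0.00 ± 0.08 in siCAMSAP1 and 0.19 ± 0.08 for siRAB3IP against siCAMSAP1, none past the threshold. In bulk RNA, fewer cells that express a gene and less RNA per cell cannot be told apart.

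Other microtubule genes were read from 6 lists with 152 symbols, of which 150 were matched and 139 tested. In siRAB3IP against control 20 passed, 12 higher and 8 lower, or 14.4% against the 11.6% of all genes. In siCAMSAP1 against control 1 passed, or 0.719% against 0.94%, and in siRAB3IP against siCAMSAP1 15 passed, 7 higher and 8 lower, or 10.8% against 8.85%. The share called depends on level: of the 11783 genes with a mean of 5 CPM or more, 20.0%, 1.39% and 15.5% passed. Many listed genes were above that level, so no excess is read from these shares. The median log2 fold change of the listed genes was -0.03, 0.02 and -0.04. Below, counts of genes that rose or fell are of those past the threshold. In siRAB3IP against siCAMSAP1, 4.35% of tubulins, 15.4% of other structural proteins, 5.0% of plus-end proteins and 20.0% of mitotic proteins passed. So did 18.2% of kinases and phosphatases and 0% of tubulin-modifying enzymes. In siRAB3IP against control, 4.55% of tubulin-modifying enzymes passed. Of the 20 calls in siRAB3IP, 5 (CDK5R1, GAS2L3, HMMR, TUBB4A and UHMK1) held under every setting tried apart from the grouping by record titles, where tested, and 15 ended when at least 1 library was left out.

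The tubulin list held 19 tubulin genes and 4 tubulin-folding cofactors that were tested. Of these 23 genes 3, all tubulins, fell in siRAB3IP and 0 rose, a share close to the 11.6% of all genes that passed. Of all genes, 5.24% passed as lower. The median log2 fold change of the 23 genes was -0.07, and no fall of tubulins as a set is read from 3 calls. TUBA1A, an alpha tubulin, had 190 and 220 CPM in siRAB3IP against 275 and 290 CPM in control (log2 fold change -0.46 ± 0.09, edgeR adjusted p = 0.00533). TUBA1A shares 14.3% of its exon bases with TUBA1C and has near-identical paralogues, so its value is uncertain. TUBB2B, a beta tubulin, had 32.4 and 28.9 CPM in siRAB3IP against 43.9 and 40.4 CPM in control (-0.46 ± 0.09, edgeR adjusted p = 0.00752). In siCAMSAP1 TUBB2B was low as well, at 32.5 and 31.4 CPM (-0.40 ± 0.09 against control, not past the threshold). Between the knockdowns TUBB2B was at -0.06 ± 0.09, and it shares 7.93% of its exon bases with PSMG4. The call of TUBA1A ended without siRAB3IP replicate 1 (-0.36) and that of TUBB2B without siRAB3IP replicate 2 (-0.38). TUBB4A, a beta tubulin named here after its values were seen, had 1.80 and 2.21 CPM against 4.07 and 5.08 CPM in control (-1.19 ± 0.20, edgeR adjusted p = 0.00267), and it also fell against siCAMSAP1 (-0.98 ± 0.20, edgeR adjusted p = 0.00963), a call that ended without siRAB3IP replicate 1 or siCAMSAP1 replicate 1 (-1.14 to -0.84 over the leave-outs).

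Of 26 other structural microtubule-associated proteins, 3 rose and 0 fell past the threshold in siRAB3IP, or 11.5% against 11.6% of all genes. MAP1LC3B, which encodes the autophagy protein LC3B, had 43.7 and 39.5 CPM in siRAB3IP against 28.9 and 30.6 CPM in control (0.48 ± 0.09, edgeR adjusted p = 0.00487), a call that ended without siRAB3IP replicate 1 (0.41). GAS2L3, which links actin and microtubules, had 63.9 and 67.8 CPM against 45.98 and 49.3 CPM in control (0.47 ± 0.08, edgeR adjusted p = 0.00355). MTUS2, a microtubule-tip protein named after its values were seen, had 44 and 63 fragments against 21 and 15 in control (1.62 ± 0.37), and its call ended by DESeq2 and without siRAB3IP replicate 2 or control replicate 2, with leave-out values from 1.34 to 1.961. Against siCAMSAP1, 3 rose and 1 fell in siRAB3IP. MAP6, which makes microtubules resistant to cold, and whose call held in all 13 settings with leave-out values from -1.46 to -0.71, had 13.2 and 7.88 CPM in siRAB3IP against 22.7 and 20.5 CPM in siCAMSAP1 (-1.04 ± 0.18, edgeR adjusted p = 0.00385), and 13.6 and 13.1 CPM in control. DCLK1, a kinase with doublecortin domains, had 7.38 and 11.5 CPM in siRAB3IP against 4.28 and 5.21 CPM in siCAMSAP1 (0.99 ± 0.21, edgeR adjusted p = 0.0110), a call that ended without siRAB3IP replicate 2 or siCAMSAP1 replicate 1 with leave-out values from 0.64 to 1.28. The other rises were those of GAS2L3 (0.35 ± 0.08) and MTUS2 (1.40 ± 0.37), and both calls ended when any 1 of the 4 libraries compared was left out, at 0.31 to 0.39 and 1.11 to 1.69.

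Of 20 plus-end proteins, 6 passed in siRAB3IP, of which 4 rose and 2 fell. This share was above the 11.6% of all genes and the 20.0% of those with a mean of 5 CPM or more. No excess is read from a list of this size. CLIP1, which links growing ends to membranes, had 127 and 139 CPM in siRAB3IP, 123 and 131 CPM in siCAMSAP1, and 96.4 and 98.6 CPM in control. Its log2 fold changes were 0.45 ± 0.08 in siRAB3IP (edgeR adjusted p = 0.00418) and 0.39 ± 0.08 in siCAMSAP1 (edgeR adjusted p = 0.0430). The siRAB3IP call ended without siRAB3IP replicate 2 (0.38), and the siCAMSAP1 call held in 4 of 13 settings and ended when any 1 of the 6 libraries was left out (0.34 to 0.43). NAV1, a neuron navigator protein, had 10.3 and 9.16 CPM in siRAB3IP against 13.9 and 15.0 CPM in control (-0.57 ± 0.12, edgeR adjusted p = 0.0105), and the call ended without siRAB3IP replicate 2 (-0.49) or control replicate 2 (-0.51). In siCAMSAP1 NAV1 was low as well, at 10.5 and 9.40 CPM (-0.54 ± 0.12 against control, not past the threshold). Between the knockdowns NAV1 was at -0.04 ± 0.13. CLASP1, which stabilises growing ends, had 67.3 and 66.9 CPM against 81.0 and 85.9 CPM in control (-0.32 ± 0.08, edgeR adjusted p = 0.0204), and it also fell against siCAMSAP1 (-0.35 ± 0.08). Either CLASP1 call ended without either siRAB3IP library, that against control without control replicate 2 and that against siCAMSAP1 without either siCAMSAP1 library, with leave-out values from -0.36 to -0.27 and from -0.37 to -0.33. CLIP4 (1.57 ± 0.37), NAV3 (2.67 ± 0.62) and MAPRE1 (0.30 ± 0.08), the end-binding protein EB1, were the other rises, named after their values were seen. CLIP4 had 37 and 43 fragments against 11 and 17 in control and NAV3 26 and 18 against 4 and 3, close to the floor of 3 counts, and both calls ended by DESeq2. In siCAMSAP1 CLIP4 had 39 and 32 fragments. In siCAMSAP1 against control CLIP4 was at 1.35 ± 0.37, NAV3 at 1.26 ± 0.70 and MAPRE1 at 0.23 ± 0.08, none past the threshold. The NAV3 call ended when any 1 of the 4 libraries compared was left out, that of CLIP4 without siRAB3IP replicate 2 or control replicate 1, and that of MAPRE1 without either siRAB3IP library or control replicate 2. Over the leave-outs CLIP4 ran from 1.36 to 1.84, NAV3 from 2.38 to 2.95 and MAPRE1 from 0.25 to 0.34.

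Of 15 mitotic microtubule-associated proteins, 2 rose and 1 fell past the threshold in siRAB3IP, or 20.0%. This stands beside 11.6% of all genes and 20.0% of those with a mean of 5 CPM or more. HMMR, a spindle assembly factor, had 56.4 and 47.3 CPM in siRAB3IP, 83.3 and 85.2 CPM in siCAMSAP1, and 91.8 and 88.995 CPM in control. It fell against control (-0.80 ± 0.09, edgeR adjusted p = 0.000283) and against siCAMSAP1 (-0.70 ± 0.09), and both calls held in all 13 settings. The centrosomal TACC1 had 76.7 and 78.5 CPM against 57.8 and 63.6 CPM in control (0.35 ± 0.08, edgeR adjusted p = 0.0163) and TACC2 30.4 and 34.8 CPM against 23.9 and 26.96 CPM (0.36 ± 0.10, edgeR adjusted p = 0.0370). Both calls ended without siRAB3IP replicate 2 or control replicate 1, that of TACC1 without siRAB3IP replicate 1 and that of TACC2 with upper-quartile scaling, with leave-out values from 0.29 to 0.43 and from 0.26 to 0.45. Against siCAMSAP1, TACC1 rose (0.39 ± 0.08) and KNSTRN, a spindle and kinetochore protein, fell (-0.35 ± 0.09, edgeR adjusted p = 0.0219), at 65.3 and 58.9 CPM in siRAB3IP and 77.4 and 81.4 CPM in siCAMSAP1. The KNSTRN call ended without siRAB3IP replicate 2 or either siCAMSAP1 library, and that of TACC1 without either siRAB3IP library or siCAMSAP1 replicate 1, with leave-out values from -0.43 to -0.28 and from 0.35 to 0.44.

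Of 33 kinases, phosphatases and activators that act on these proteins, 3 rose and 1 fell past the threshold in siRAB3IP. This was 12.1% against 11.6% of all genes. UHMK1, a kinase also called KIS for its interaction with stathmin, had 259 and 280.3 CPM in siRAB3IP, 117 and 117 CPM in siCAMSAP1, and 132 and 135 CPM in control. It rose against control (1.02 ± 0.08, edgeR adjusted p = 1.94e-05) and against siCAMSAP1 (1.21 ± 0.08, edgeR adjusted p = 9.78e-06), and both calls held in all 13 settings. CDK5R1, the p35 activator of the tau kinase CDK5, had 14.6 and 15.2 CPM in siRAB3IP against 10.005 and 9.94 CPM in control (0.58 ± 0.11, edgeR adjusted p = 0.00588) and also rose against siCAMSAP1 (0.55 ± 0.11), where the call ended without siRAB3IP replicate 2 or either siCAMSAP1 library (0.53 to 0.58 over the leave-outs). NUAK1, a kinase of the AMPK family, had 24.9 and 27.2 CPM against 33.3 and 35.8 CPM in control (-0.41 ± 0.09, edgeR adjusted p = 0.0137), and the call ended without siRAB3IP replicate 1 or control replicate 2 (-0.47 to -0.35 over the leave-outs). PPP2CB, a catalytic subunit of protein phosphatase 2A named after its values were seen, rose (0.35 ± 0.08), and its call ended without either siRAB3IP library or control replicate 1 (0.31 to 0.39 over the leave-outs). Against siCAMSAP1, 3 rose and 3 fell, with the falls in SIK1 (-0.51 ± 0.12), NUAK1 (-0.35 ± 0.09) and MARK4 (-0.38 ± 0.09). The calls of SIK1, NUAK1 and PPP2CB (0.37 ± 0.08) there ended without any 1 of the 4 libraries compared, and that of MARK4 without either siRAB3IP library or siCAMSAP1 replicate 1. Over the leave-outs SIK1 ran from -0.54 to -0.47, NUAK1 from -0.41 to -0.28, PPP2CB from 0.34 to 0.40 and MARK4 from -0.43 to -0.31. Of 22 tubulin-modifying enzymes, 1 fell in siRAB3IP, the tubulin deacetylase HDAC6, with 36.996 and 44.5 CPM against 55.4 and 56.4 CPM in control (-0.46 ± 0.09, edgeR adjusted p = 0.00892), and the call ended without siRAB3IP replicate 1 (-0.33).

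**Figure D5:**
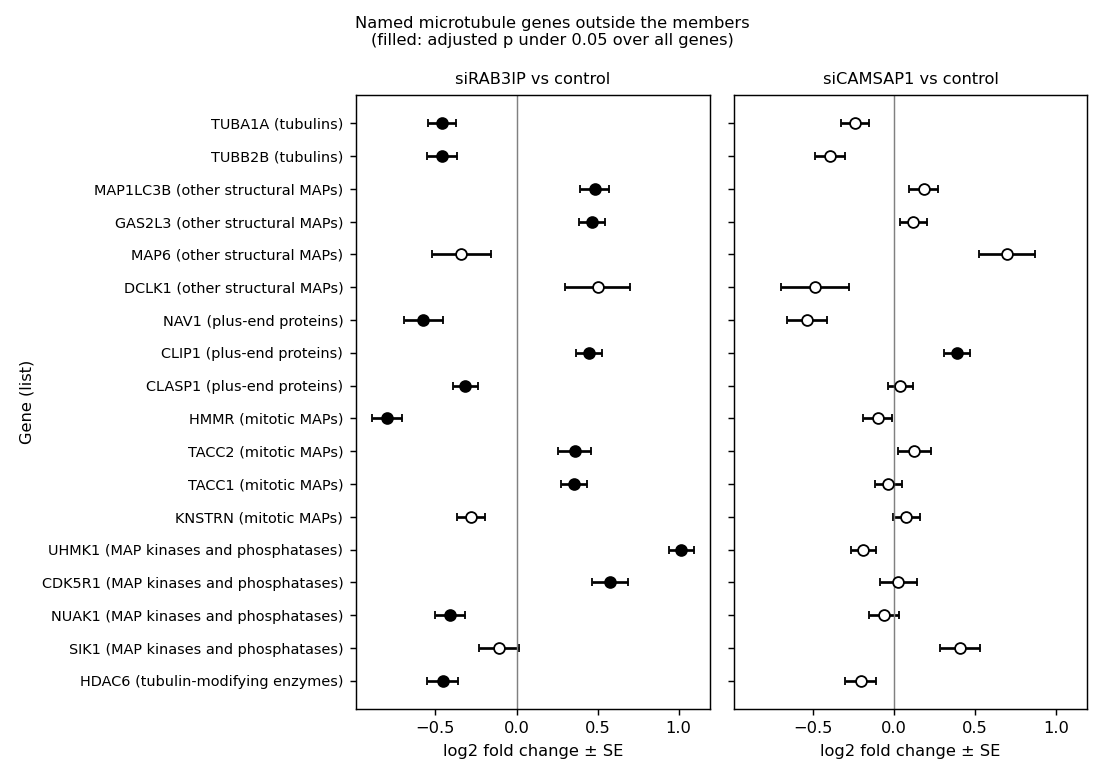
Log2 fold change with its standard error of the other microtubule genes named by rule, in siRAB3IP and in siCAMSAP1 against the same control libraries, where filled points passed an adjusted p under 0.05 over all genes. UHMK1 lies highest and HMMR lowest in siRAB3IP, and CLIP1 is the filled point in siCAMSAP1.

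The genes whose pattern over the 6 libraries was most like that of MAP2 were sought by Pearson's r of log2(CPM + 0.5) among 11557 other genes whose mean reached 5 CPM. They were STRADA, SEPTIN6, METTL7A, CASP16P and SPEN, each at r = 0.99, which describes a ranking over libraries that share their groups and carries no test. METTL7A had 15.3 and 17.7 CPM in siRAB3IP, 18.8 and 18.5 CPM in siCAMSAP1, and 31.0 and 41.3 CPM in control. SPEN had 196 and 198 CPM in siRAB3IP, 207 and 205 CPM in siCAMSAP1, and 232 and 268 CPM in control. All of the 5 were highest in control replicate 2, as was MAP2, which follows from how they were sought. Of the STRADA exon bases, 29.3% are shared with another gene. Among the other structural genes, r with MAP2 was 0.81 for MAP1A and 0.80 for MAPT, and ran from -0.55 for MAP7 to 0.23 for MAP7D1 for the rest.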

How the data were processed

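RNA of 6 HEK293 libraries was read from the deposited table of raw counts, fragments per gene made by the authors with featureCounts 1.6.0 per the file headers, without a strand setting. The submitters' processing notes name STAR, DESeq2 and hg19. Not given in the sources used here are the versions of the aligner and of DESeq2. The authors' deposited tables hold normalized signal columns (counts divided by 1 factor per library), log2 fold changes with standard errors, and adjusted p-values, for genes past the authors' threshold. The deposited gene length, the summed exon bases per gene, gave the levels per kb.

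Of 63677 genes, 52181 were matched to a symbol (GENCODE annotation) and 21724 had no fragment. Deposited columns were matched to count columns with a tolerance of 1e-09 in log2 ratio. The main test was that of edgeR 4.0.16 under R 4.3.3 (TMM scaling, default filter, quasi-likelihood test, 1 model over 3 groups), with Benjamini-Hochberg adjustment over 22331 genes at 0.05. All 10 genes passed the filter. DESeq2 1.42.0, other scalings and filters, the compared groups alone, a replicate block, the grouping by record titles and leaving out each library were alternatives. The test was checked on simulated data. Tables and figures were made in Python 3.11.15 with pandas 2.3.3, numpy 2.4.6, scipy 1.17.1 and matplotlib 3.10.9.

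The genes and lists were chosen with earlier results of these data known. Named list genes are up to 3 called genes per list and comparison, those of largest change whose mean reached 5 CPM. A floor of 3 counts and all SDs cover these libraries only.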

Additional observations from a re-analysis of the deposited data

How the results depend on the processing

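The settings changed were the scaling (RLE, upper-quartile), the filter (none, or a mean of 5 CPM), the groups fitted (the compared groups alone), DESeq2, a replicate block, the grouping by record titles and leaving out each library. Of the 10 structural genes, 4, 2 and 1 passed in siRAB3IP against control, siCAMSAP1 against control and siRAB3IP against siCAMSAP1. At a mean of 5 CPM, where MAP2 was not tested, 2, 1 and 2 of 9 passed, while 20.0%, 1.39% and 15.5% of all 11783 genes passed. MAP1B missed the threshold in siRAB3IP against control at a mean of 5 CPM and with upper-quartile scaling. Leaving out 1 library gave 2 to 4, 0 to 2 and 0 to 1. Of the 139 list genes, 20, 1 and 15 passed, and 10 to 20, 0 to 1 and 3 to 19 when 1 library was left out. In siCAMSAP1 against control 5 list genes passed with no filter, 5 by DESeq2 and 0 at a mean of 5 CPM. Of all genes tested in these settings, 1.33%, 1.71% and 1.39% passed.

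With a replicate block, 5, 3 and 3 of the structural genes passed, with STMN1 added in siRAB3IP, MAP7 in siCAMSAP1, and MAP7 and STMN1 between them, and 46, 14 and 40 list genes, while the same fit called 24.1%, 6.31% and 20.7% of all 22331 genes. The labels give same-numbered libraries a shared number, with 2 per group, and do not state that they are paired. Differences between replicates 1 and 2 correlated between groups at r = 0.45, 0.45 and 0.54 over 11784 genes. Same-numbered libraries thus shared some variation, which the main test leaves in the spread.

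Grouped by record titles, 0 structural and 0 list genes passed in each comparison. In siRAB3IP against control the log2 fold changes turned to 0.59 (MAP2), 0.068 (MAP1A), -0.021 (MAP1B), 0.50 (MAPT), -0.29 (CDK5R1), 0.20 (CLASP1), -0.0063 (CLIP1), -0.13 (GAS2L3), 0.19 (HDAC6), 0.22 (HMMR), -0.16 (MAP1LC3B), 0.083 (NAV1), 0.23 (NUAK1), -0.15 (TACC1), 0.17 (TUBA1A) and -0.63 (UHMK1). Of the list genes called, 17 of 20 in siRAB3IP and 15 of 15 between the knockdowns changed sign, those without a value here being named after their values were seen or outside the naming rule. In siCAMSAP1 against control MAP2 was at -0.33 and MAP1A at -0.70. Between the knockdowns they turned to -0.19 (MAP1B), -0.33 (CDK5R1), 0.15 (CLASP1), -0.51 (DCLK1), -0.26 (GAS2L3), 0.38 (HMMR), 0.094 (KNSTRN), 0.33 (MAP6), 0.065 (SIK1), -0.21 (TACC1) and -0.66 (UHMK1). By titles, control holds control replicate 1 and siRAB3IP replicate 1, and siRAB3IP holds siCAMSAP1 replicate 1 and control replicate 2. The siCAMSAP1 title group holds replicate 2 of siRAB3IP and of siCAMSAP1. In both comparisons of the siRAB3IP title group, siRAB3IP libraries therefore stand only on the opposite side. Turned signs of genes that differ in siRAB3IP follow largely from this relabelling, so they cannot show how firm the calls are. Counts under 100 fragments, as for MAP2 in the knockdowns, limit the precision.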
